A study of Mus musculus with 8 samples.

Results

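Mouse chromosome 12 was followed through 8 BALB-neuT tumors, as 389 genes of 10581 measured on all chromosomes. A gene entered when a probe set with 1 gene symbol lay on chromosome 12 and averaged at least 6 on the log2 scale over the 8 arrays, and where a gene had more than 1 such probe set the brightest stood for it. Of the 761 chromosome 12 genes on the array, 372 fell below this level. The members were 363 protein-coding genes, 9 miRNA genes, 10 lncRNA genes and 7 of other classes. The chromosome and the split of the tumors by their number, 1 and 2 against 3 and 4, were selected on measured values of these same arrays. Every difference between the numbers is therefore given as a description, without a test.

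The arrays (Affymetrix MoGene 2.0 ST) compared 4 DTC tumors (DTC1 to DTC4) with 4 mammary tumors (T1 to T4), 1 array per tumor, to ask how tumors formed by disseminated tumor cells differ from mammary tumors. DTC tumors grew from the marrow of BALB-neuT mice, in which the MMTV promoter drives an activated rat Her2/neu oncogene in the mammary gland, and according to the labels all cells were injected subcutaneously with bFGF and matrigel. The NSG hosts have no mature T, B or NK cells. The labels call the disseminated cells early and the mammary tumors TUBO-derived, TUBO being a cell line from a BALB-neuT tumor. The study's results instead describe DTC tumors from late donors with invasive carcinomas, and its methods name primary BALB-neuT mammary tumors. If the labels hold, all 4 mammary tumors came from 1 line. Whether the tumors grew in separate hosts is not stated, so p-values measure the spread between these samples only. The labels give the tumor numbers no meaning, as a batch or otherwise.

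Of 8 luminal epithelial markers, 7 averaged 9.02 to 11.46 and Krt19 averaged 4.74, below the array medians. Their mean over the list was 9.63 to 9.82 in the 8 tumors. The array medians lay between 5.36 and 5.42, and any pair of arrays correlated at 0.975 to 0.988 over probe sets, which are no independent replicates.

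Chromosome 12 of the mouse carries genes of many unrelated functions, among them the oxygen-regulated transcription factor subunit Hif1a, the immediate early gene Fos, the kinase Akt1, the imprinted Dlk1-Dio3 domain, a cluster of serpin genes and the immunoglobulin heavy chain locus that B cells rearrange. Neighboring genes on a chromosome usually have promoters of their own and are transcribed largely independently, although domains such as the imprinted one are regulated together. The arrays measured RNA, and DNA copy number was not measured.

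Promoter windows of 4 members are shown because these genes stand for different behaviors along the chromosome. Rab10 (a small GTPase of vesicle transport) lies at the start of the chromosome, where DTC1 and DTC2 were not raised. Fkbp3 (a nuclear prolyl isomerase) had one of the largest differences between the numbers, Hif1a a common one, and Fos almost none. The windows run 250 bases before to 50 after the start in RefSeq (GRCm38.p6), 5′ to 3′ on the gene's strand, at chr12:3309920-3310219 (minus strand) for Rab10, chr12:65073889-65074188 (minus strand) for Fkbp3, chr12:73907617-73907916 (plus strand) for Hif1a and chr12:85473640-85473939 (plus strand) for Fos. Capitals mark matches on either strand to 4 core promoter or enhancer motifs, none of which contains another. These are the CCAAT box, the GC box (spelled GGGCGG), the TATA box in its form TATAAA, and the E-box, which reads CACGTG.
Rab10: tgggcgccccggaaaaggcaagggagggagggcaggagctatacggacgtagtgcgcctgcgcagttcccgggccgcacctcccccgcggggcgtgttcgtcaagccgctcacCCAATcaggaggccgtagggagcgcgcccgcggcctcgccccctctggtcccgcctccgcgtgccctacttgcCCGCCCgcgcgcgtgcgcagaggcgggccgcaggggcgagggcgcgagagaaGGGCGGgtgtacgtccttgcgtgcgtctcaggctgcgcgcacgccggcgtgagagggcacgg
Fkbp3: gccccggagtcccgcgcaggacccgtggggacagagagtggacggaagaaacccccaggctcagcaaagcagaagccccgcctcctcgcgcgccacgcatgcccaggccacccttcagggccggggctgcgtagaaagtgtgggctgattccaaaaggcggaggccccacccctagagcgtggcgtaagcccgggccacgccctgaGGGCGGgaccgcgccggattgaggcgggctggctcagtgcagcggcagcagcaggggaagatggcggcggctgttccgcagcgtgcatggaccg
Hif1a: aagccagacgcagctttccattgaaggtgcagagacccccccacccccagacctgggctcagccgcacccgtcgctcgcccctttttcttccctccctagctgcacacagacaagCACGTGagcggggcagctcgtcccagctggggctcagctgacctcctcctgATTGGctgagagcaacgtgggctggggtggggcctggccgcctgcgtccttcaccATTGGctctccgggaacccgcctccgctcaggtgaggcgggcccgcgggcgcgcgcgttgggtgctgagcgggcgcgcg
Fos: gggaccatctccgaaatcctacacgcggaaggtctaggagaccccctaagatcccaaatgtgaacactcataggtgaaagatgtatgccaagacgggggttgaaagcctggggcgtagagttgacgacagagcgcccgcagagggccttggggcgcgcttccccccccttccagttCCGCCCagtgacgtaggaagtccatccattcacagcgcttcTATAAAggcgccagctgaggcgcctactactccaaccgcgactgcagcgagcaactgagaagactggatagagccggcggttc

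Matches to GGGCGG were 2 in Rab10, 1 in Fkbp3 and 1 in Fos, Hif1a had 2 matches to CCAAT and 1 to CACGTG, and Fos alone of the 4 held TATAAA. RefSeq listed 417 promoters for 336 members, and no entry was used for Ifi27 and Hsp90aa1. Among them GGGCGG was found in 61.4%, against 64.0% of the promoters of genes measured on other chromosomes and 35.7% of all promoters. CCAAT was found in 37.4% of member promoters, against 37.2% off chromosome 12 and 37.4% of all. TATAAA was found in 7.19% of member promoters, against 7.14% and 13.6%, and CACGTG in 9.59%, against 10.1% and 7.15%. The median GC content was 62.3% in member promoters, against 61.0% off chromosome 12. Member promoters were thus close in these letters to those of other genes at the same level of expression.

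Chromosome 12 genes were higher in DTC1, DTC2, T1 and T2 than in DTC3, DTC4, T3 and T4. The median difference was 0.35 on the log2 scale, a 1.27-fold higher value, with quartiles of 0.22 and 0.47, and 353 of 389 members lay above 0. It was 0.35 in DTC tumors and 0.38 in mammary tumors taken alone, and 313 members were higher in both. Over the 10192 genes of other chromosomes the median was 0.01, with quartiles of -0.09 and 0.10. Among the 19 other chromosomes, the median ranged from -0.07 on chromosome 18 to 0.07 on chromosome 2, and in DTC tumors alone it reached 0.20 on chromosome 2.

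**Figure D1:**
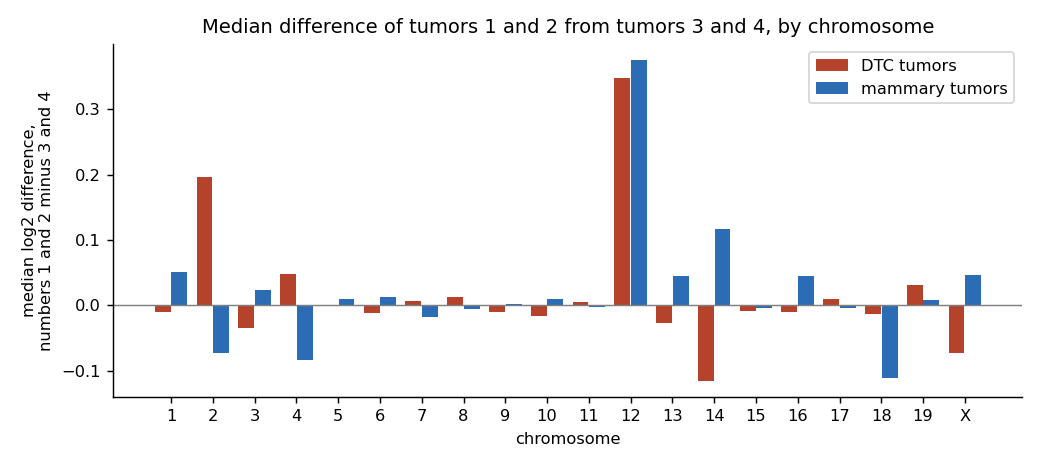
Median log2 difference of tumors numbered 1 and 2 from tumors numbered 3 and 4 for each chromosome, in DTC tumors (red bars) and mammary tumors (blue bars). Chromosome 12 stands at 0.35 in DTC tumors and 0.38 in mammary tumors, and no other chromosome passes 0.20 in either.

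In 164 members (42.2%) all 4 tumors of numbers 1 and 2 lay above all 4 of numbers 3 and 4, against 3.01% of all genes measured. Members with more than 1 probe set at the minimum mean had 17 further probe sets. Of these, 14 were above 0, with a median of 0.24 over the 17, but 0 lay wholly above. Only Ighv1-53, an immunoglobulin variable segment, lay wholly below (0.257% of members, against 1.38% of all genes). Members were 3.68% of the genes but 51.4% of those that lay wholly above. Since the split was chosen on this contrast, nothing is read from these shares.

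The 8 tumors did not form 2 even sets. As medians over the members, measured from each gene's mean over the 8 tumors, DTC1 stood at 0.15, DTC2 at 0.12, DTC3 at -0.17 and DTC4 at -0.21. T1 stood at 0.21, T2 at 0.22, T3 at -0.07 and T4 at -0.24. T3 thus lay between the other mammary tumors: its members were lower than those of T1 by a median of 0.30 and higher than those of T4 by 0.15. Between DTC1 and DTC2 the median difference was 0.01, and between T1 and T2 it was 0.01. The median over all genes off chromosome 12 stayed between -0.02 and 0.02 in every tumor, but single chromosomes moved more. In DTC1, DTC2 and DTC3 the lowest median of another chromosome was -0.24, -0.28 and -0.24. In T1, T2 and T3 the highest was 0.30, 0.25 and 0.17. Each of these was larger in size than the chromosome 12 median of the same tumor. In DTC4 and T4 the other chromosomes ranged from -0.08 to 0.09 and from -0.05 to 0.18, smaller in size than chromosome 12.

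Fkbp3 showed the pattern in both groups. Its log2 value was 10.53 and 10.78 in DTC1 and DTC2, against 9.87 and 10.004 in DTC3 and DTC4, and 10.51 and 10.78 in T1 and T2, against 10.02 and 9.70 in T3 and T4. The difference was 0.72 in DTC tumors and 0.79 in mammary tumors, and the numbers did not overlap. Ifi27, an interferon-inducible gene, was the member with the largest difference among those that did not overlap, 0.89. It measured 10.39 and 10.31 in DTC1 and DTC2, against 9.39 and 9.46 in DTC3 and DTC4, and 10.67 and 10.40 in T1 and T2, against 10.06 and 9.32 in T3 and T4.

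Ckb, the brain-type creatine kinase, had a difference of 0.85 that came mostly from the DTC tumors. Its values were 9.07 in DTC1 and 9.07 in DTC2, against 7.05 in DTC3 and 8.24 in DTC4, and 8.78 and 8.56 in T1 and T2, against 8.36 and 8.45 in T3 and T4. The difference was 1.43 in DTC tumors and 0.26 in mammary tumors. Prkar2b, a regulatory subunit of protein kinase A, leaned the other way, with 0.43 in DTC tumors and 1.00 in mammary tumors.

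The other members among the 12 largest that did not overlap served unrelated functions and lay between 0.64 and 0.71. They were Ccdc85c, Atp5mpl (a small subunit of the mitochondrial ATP synthase), Twistnb (a subunit of RNA polymerase I), Plek2 (an actin-associated pleckstrin), Glrx5 and Nubpl (iron-sulfur proteins of mitochondria), Mnat1 (an assembly factor of the CDK-activating kinase) and Six4 (a homeobox factor). Larger or similar differences occurred in members whose numbers overlapped over the 8 tumors, named here after their values were seen. Such a member can still separate fully within each group, as Mboat2 did here and Rrm2 and Tgfb3 did below. Mboat2, a membrane-bound acyltransferase, reached 0.98, Stxbp6 0.84, Alkal2, a ligand of the receptor tyrosine kinases ALK and LTK, 0.80 and Asap2 0.71.

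The 12 smallest differences among the members that did not overlap were that of Ighv1-53, at -0.20, and those of 11 members between 0.20 and 0.29. Dync1h1, the heavy chain of cytoplasmic dynein, had 0.20, with 9.86 and 9.73 in DTC1 and DTC2, against 9.58 and 9.42 in DTC3 and DTC4, and 9.73 and 9.78 in T1 and T2, against 9.65 and 9.66 in T3 and T4. Ywhaq, a 14-3-3 protein and one of the brightest members, had 0.23, as did Ccnk (cyclin K) and Pqlc3. Ptpn21, Gm9222, Zfp386, Rps29, Coq6, Papola and Max (the partner of Myc) followed at 0.26 to 0.29.

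**Figure D2:**
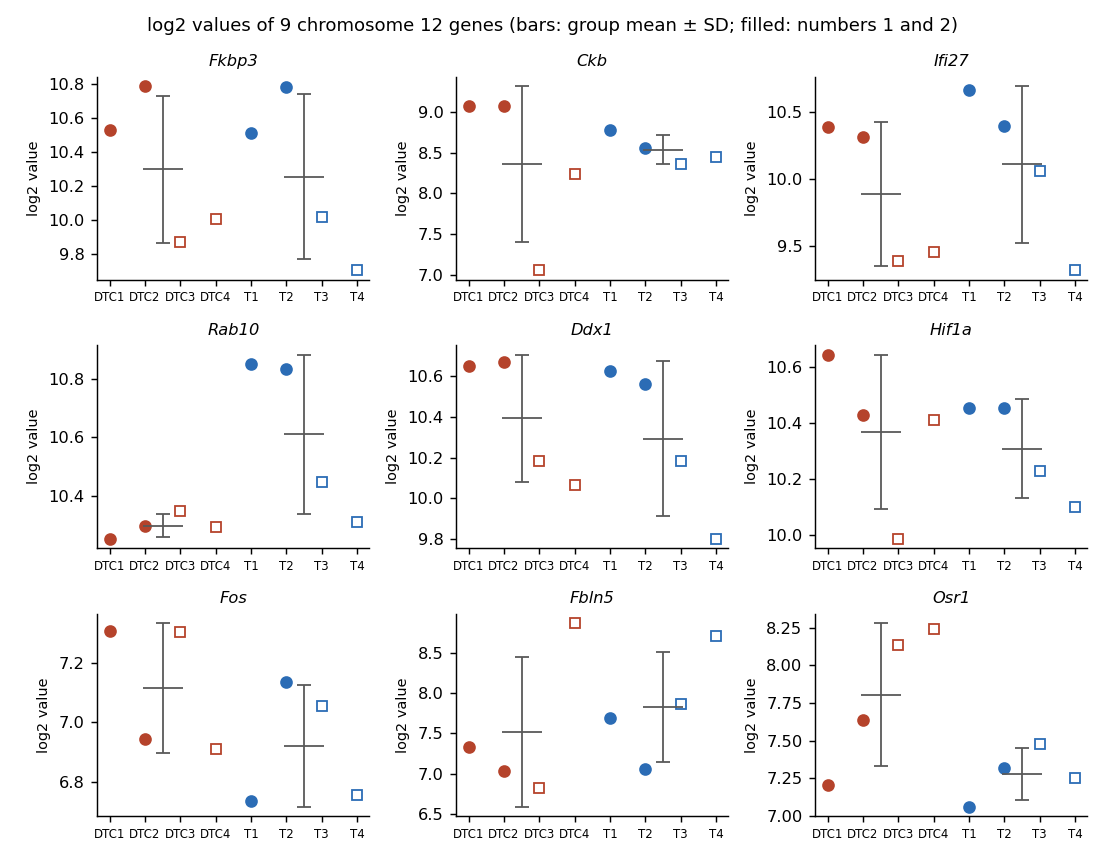
log2 values of 9 chromosome 12 genes in each tumor, DTC tumors in red and mammary tumors in blue, numbers 1 and 2 as filled circles and 3 and 4 as open squares, with group mean and SD (n = 4 each). Fkbp3, Ifi27, Ddx1, Ckb and Hif1a show no overlap between the numbers, Rab10 is raised in T1 and T2 alone, Fos overlaps, and Fbln5 and Osr1 tend to be lower in numbers 1 and 2.

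A minority of members ran against the rest. Fbln5, which encodes an elastic fiber protein, had the lowest difference, -0.79. It measured 7.34 and 7.03 in DTC1 and DTC2, against 6.82 and 8.88 in DTC3 and DTC4, and 7.69 and 7.05 in T1 and T2, against 7.87 and 8.72 in T3 and T4. Only DTC4 and T4 were high, and the numbers overlapped. AF357425, a small nucleolar RNA gene, and Prkd1, protein kinase D1, followed at -0.50 each, and Osr1, a zinc finger factor of mesenchyme, at -0.47. Ighm, the immunoglobulin mu constant region, had -0.24.

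The list means of markers of other cell types overlapped between the numbers in every list measured, and none of these markers lies on chromosome 12. No erythroid marker was found among the probe sets with 1 gene symbol. The means of all 6 fibroblast markers spanned 8.40 to 9.27 in numbers 1 and 2, against 8.89 to 9.32 in numbers 3 and 4. The means of the 7 macrophage markers spanned 8.65 to 8.90, against 8.41 to 8.87, and those of the 5 fat cell markers 6.002 to 6.86, against 5.49 to 6.11. The means of the 5 skeletal muscle markers spanned 4.85 to 5.06, against 5.01 to 5.22. Despite the overlap, each fat cell and macrophage marker was higher in numbers 1 and 2 (lists 0.52 and 0.17). Each fibroblast and skeletal muscle marker was lower (lists -0.21 and -0.18). The luminal, myoepithelial, endothelial and lymphocyte lists were mixed, at -0.06 to 0.04. No marker was at 0. B and plasma cell markers stayed at 3.82 to 4.03 in all tumors. In bulk tumors, fewer cells of a type and less RNA per cell cannot be told apart. The part of these cells in the chromosome 12 differences was not tested.

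The size of the difference went with the level of the gene. Its median was 0.20 in the 76 members that averaged 6 to 7, 0.33 in the 109 at 7 to 8, 0.43 in the 101 at 8 to 9 and 0.40 in the 72 at 9 to 10. In the 31 brightest members it was 0.31. The chromosome 12 genes under the minimum had a median of 0.01. The 6 members within 0.1 above the minimum had 0.03, and the 8 genes within 0.1 below it had 0.09. Protein-coding members had a median of 0.36, lncRNA genes 0.17 and miRNA genes 0.00.

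Of the 9 miRNA genes, only Mir1938 did not overlap. Its log2 value was 6.95 and 6.84 in DTC1 and DTC2, against 6.08 and 6.10 in DTC3 and DTC4, and 7.003 and 6.90 in T1 and T2, against 6.66 and 6.79 in T3 and T4. Its mature miRNA at chr12:40222782-40222803 (minus strand, GRCm38.p6) is shown from RefSeq with the seed, bases 2 to 8, in capitals. The array probe set is named for the gene, and whether it reads the mature form is not stated.
mmu-miR-1938: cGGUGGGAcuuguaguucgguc

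Along the chromosome, the difference was present in every stretch. The members were placed in RefSeq order (GRCm38.p6) and read in 16 consecutive windows, 15 of 25 members and a last one of 14. Window medians over all tumors ranged from 0.21 to 0.44 in the full windows. In mammary tumors alone they ranged from 0.28 to 0.54. In DTC tumors alone they ranged from 0.20 to 0.46 in the full windows after the first, but the first window, from Rab10os to Gen1, stood at 0.05. T3 lay below T1 and T2 and above T4 in the median of all 16 windows.

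**Figure D3:**
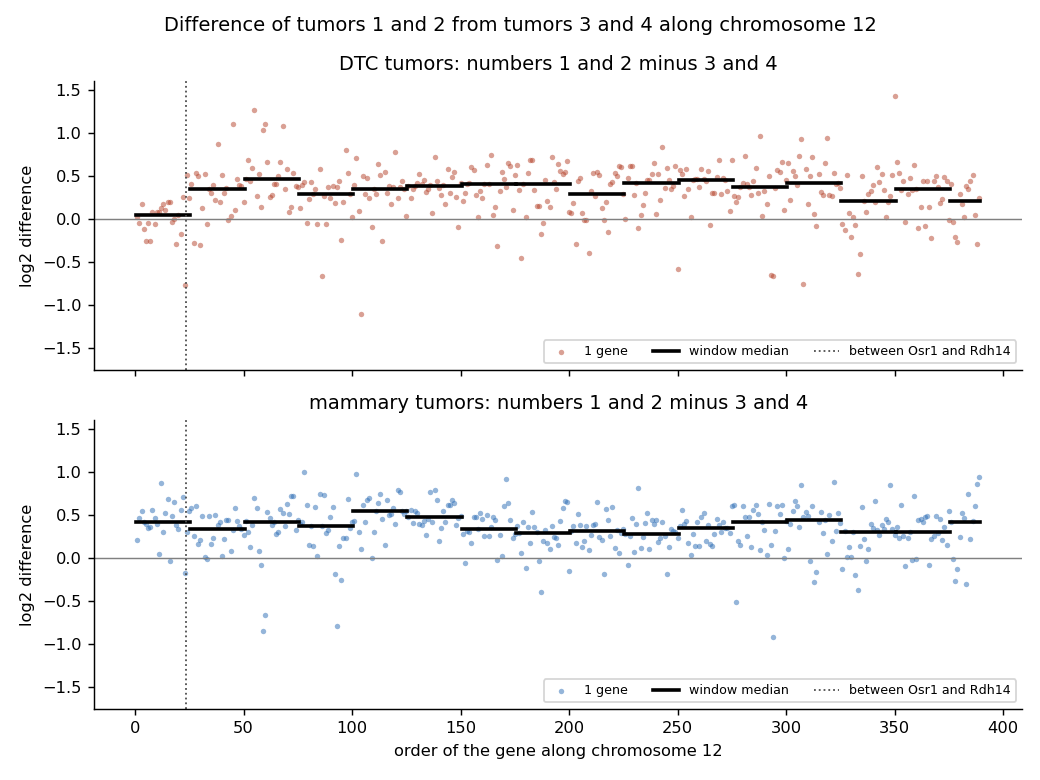
log2 difference of numbers 1 and 2 from numbers 3 and 4 for each member in its order along chromosome 12, in DTC tumors (top) and mammary tumors (bottom), with window medians as black lines. The medians stay above 0 throughout, except that the first DTC window lies near 0 (0.05), and the dotted line marks the place between Osr1 and Rdh14.

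The first 23 members, Rab10os to Osr1, stood apart within DTC tumors. This edge was placed after the values were seen and was not tested. Over these members DTC1 had a median deviation of -0.16, DTC2 of -0.14, DTC3 of -0.06 and DTC4 of -0.18. T1 stood at 0.36, T2 at 0.34, T3 at -0.01 and T4 at -0.18. In 19 of the 23 both T1 and T2 lay above the other 6 tumors, against 107 of the 366 members after the edge and 8.43% of all genes measured. Both DTC1 and DTC2 lay above DTC3 and DTC4 in 4 of the 23, against 259 of the 366 and 21.1% of all genes.

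Rab10 measured 10.25 and 10.30 in DTC1 and DTC2, against 10.35 and 10.29 in DTC3 and DTC4, and 10.85 and 10.83 in T1 and T2, against 10.45 and 10.31 in T3 and T4. The 4 DTC values lay within 0.1 of each other, and T1 and T2 stood clear of all others. Asxl2, of the Polycomb-associated ASXL family, measured 8.60 and 8.58 in DTC1 and DTC2, against 8.71 and 8.69 in DTC3 and DTC4, and 9.15 and 9.13 in T1 and T2, against 8.75 and 8.68 in T3 and T4. Dnmt3a, a de novo DNA methyltransferase, and Ncoa1, a coactivator of nuclear receptors, had differences of -0.05 and -0.06 in DTC tumors and of 0.35 and 0.47 in mammary tumors. Sf3b6, a splicing factor, had 0.12 in DTC tumors and 0.87 in mammary tumors. Atad2b was the sole member of the 23 whose numbers did not overlap.

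**Figure D4:**
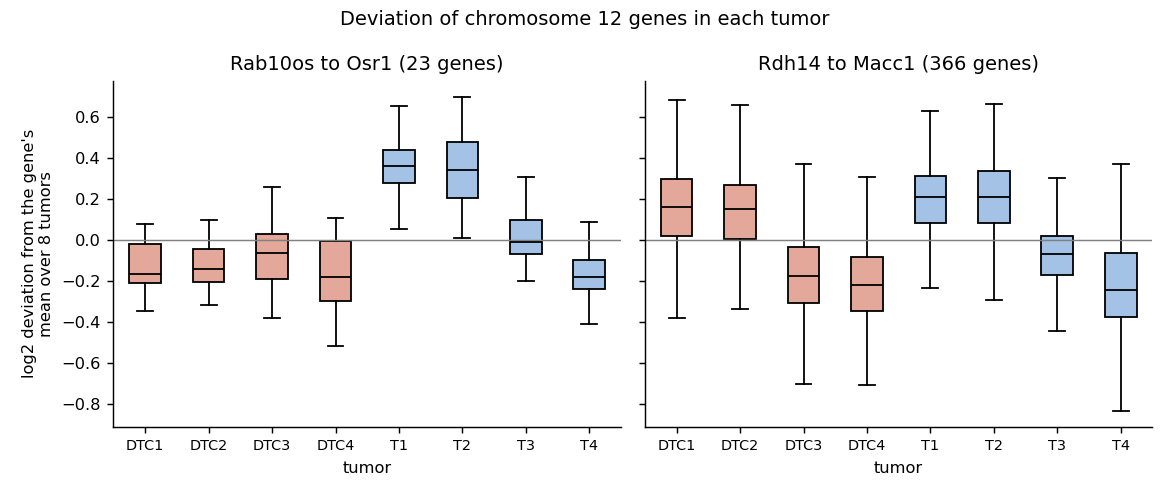
log2 deviation of members from their mean over the 8 tumors, in each DTC tumor (red) and mammary tumor (blue), for the 23 members up to Osr1 (left) and the 366 after it (right). Boxes span the quartiles with the median as a line, and whiskers reach the last value within 1.5 times the box. DTC1 and DTC2 lie below 0 on the left (-0.16 and -0.14) and above it on the right (0.16 and 0.15).

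Beyond the edge the DTC pattern changed within a few genes. Osr1, the last of the first 23, ran lower in DTC1 (7.21) and DTC2 (7.64) than in DTC3 (8.14) and DTC4 (8.24), against 7.06 and 7.32 in T1 and T2 and 7.48 and 7.25 in T3 and T4. Rdh14, a retinol dehydrogenase and the next member, measured 7.57 in DTC1 and in DTC2, against 7.25 and 6.87 in DTC3 and DTC4, and 7.40 and 7.48 in T1 and T2, against 7.29 and 6.98 in T3 and T4. Gen1, a resolvase of Holliday junctions, had 0.24 in DTC tumors and 0.54 in mammary tumors, with overlap. Smc6, of a DNA repair complex, and Ddx1, an RNA helicase, showed no overlap, with DTC differences of 0.41 and 0.54. Between them Cyria, a regulator of Rac signaling, had -0.28 in DTC tumors and 0.26 in mammary tumors. At the other end of the chromosome Macc1 had 0.25 in DTC tumors and 0.93 in mammary tumors.

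Gene lists by function were read against the chromosome median of 0.35, and they describe the members only. Counts that did not overlap stand beside 42.2% of all members and 3.01% of all genes. Counts above 0, here and in the lists that follow, stand beside 90.7% of all members and 53.2% of all genes. Of the 9 members in ribosome and translation, all were above 0 and 7 did not overlap, with a median of 0.46 (Rps7, a small-subunit protein, 0.60; Trmt5, a tRNA methyltransferase, 0.53). Proteasome and ubiquitin had a median of 0.44, with 8 of 9 above 0 and 7 not overlapping, among them Psmc1, an ATPase of the proteasome cap, at 0.60 and the deubiquitinase Atxn3 at 0.58. Its 1 member below 0 was Fbln5, a matrix gene that the list held although it is no part of that system. Growth and cell cycle had 0.43, with 16 of 17 above 0 and 11 not overlapping (Mnat1 0.64 and Ppp2r5c 0.54 among them). Rrm2, the small subunit of ribonucleotide reductase, had 0.49 with overlap. Its 1 member below 0 was Rtn1 (-0.17), a reticulon of the endoplasmic reticulum that is not a cell cycle gene. In the secretory pathway all 14 were above 0 and 10 did not overlap, with a median of 0.43 and Arf6, a small GTPase, at 0.58. In the mitochondrial list all 10 were above 0, with a median of 0.39 (Nubpl 0.64). The list also held Mthfd1, a cytosolic enzyme of folate metabolism, and Atp6v1d, of the vacuolar ATPase, at 0.60 each. Neither is a mitochondrial protein.

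The oxygen response list had a median of 0.35, with 4 of 5 members above 0. Hif1a measured 10.64 and 10.43 in DTC1 and DTC2, against 9.99 and 10.41 in DTC3 and DTC4, and 10.45 in T1 and in T2, against 10.23 and 10.10 in T3 and T4. The numbers did not overlap for Hif1a, but DTC4 came within 0.1 of DTC2. Egln3, a prolyl hydroxylase that marks Hif1a for degradation, had 0.35, with DTC4 the lowest at 11.06 and the other DTC tumors at 12.04 to 12.10. Hsp90aa1, a cytosolic chaperone, had 0.36 and Sec23a, a COPII coat protein, 0.47. The exception was Pgf, placental growth factor, at -0.18.

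Folding genes other than Fkbp3 lay at or below 0.53, the value of Ahsa1, an activator of Hsp90. Their list had a median of 0.31, with all 7 members above 0. Epithelial transcription factors had 0.30, with 6 of 7 above 0 and 1, Six4, not overlapping. TGF-beta and growth factors had 0.05, with 3 of 6 above 0 and none free of overlap, although Tgfb3 alone had 0.53. In AP-1 and immediate early genes 3 of 3 were above 0 with a median of 0.18, and Fos had 0.02, with values of 7.31 and 6.94 in DTC1 and DTC2, against 7.30 and 6.91 in DTC3 and DTC4.

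In the interferon stimulated list all 4 members were above 0, with a median of 0.25, and 2 of them differed in sign between the groups. Ifi27 was higher in numbers 1 and 2 in both groups (0.93 in DTC tumors and 0.84 in mammary tumors), and Nfkbia, an inhibitor of NF-kappaB, had 0.03 in DTC tumors and 0.55 in mammary tumors. Rsad2 had 1.03 in DTC tumors and -0.85 in mammary tumors, and Cmpk2 1.10 and -0.66. For both of these, DTC3 was the lowest and T4 the highest of the 8 tumors. Rsad2 (viperin) measured 7.90, 7.65 and 8.01 in DTC1, DTC2 and DTC4, against 5.48 in DTC3. In mammary tumors it was highest in T4, at 8.69, with 6.80, 6.59 and 6.39 in T1, T2 and T3. Its neighbor Cmpk2, a nucleotide kinase, was also lowest in DTC3 (6.16) and highest in T4 (9.99). The Dlk1-Dio3 list held 2 members, its flanking genes Wars (0.26) and Wdr25 (0.10). Members within the domain that the list did not name were Mir673 (-0.10), Mir665 (0.16), Mir341 (-0.13), AF357425 (-0.50) and Mir329 (-0.14). Of the serpin cluster 1 gene was a member, Serpina3n (-0.14), and of the immunoglobulin list 1, Ighm, while the member Ighv1-53 (-0.20) was not on that list.

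The comparison the study was designed for was that of DTC tumors with mammary tumors. Pik3cg, the catalytic subunit of phosphoinositide 3-kinase gamma, averaged 8.31 ± 0.22 in DTC tumors and 9.38 ± 0.36 in mammary tumors (SD, n = 4 each). Papln, an extracellular matrix glycoprotein, averaged 9.52 in DTC tumors and 10.44 in mammary tumors, and Rtn1 6.996 in DTC tumors and 8.17 in mammary tumors. Bcl11b, a zinc finger factor, was on the higher side, with 7.48, 7.32, 7.13 and 5.79 in DTC1 to DTC4, against 5.45, 6.11, 5.89 and 5.58 in T1 to T4.

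None of these passed limma (empirical Bayes, Benjamini-Hochberg over the 18877 probe sets whose interquartile range over the arrays exceeded 0.25). With both an adjusted p up to 0.05 and a log2 fold change of 1 or more in size, 0 of 428 chromosome 12 probe sets were called, against 25 of all probe sets (0.132%), and 43 of the 428 chromosome 12 probe sets had p up to 0.05 before adjustment, against 2785 of all 18877 (14.8%). Pik3cg had a log2 fold change, DTC minus mammary, of -1.07 (SE 0.21, limma adjusted p = 0.0852). With 1 probe set per gene, its adjusted p was 0.0200, with fewer features to adjust over. Rtn1 had -1.18 (SE 0.24, limma adjusted p = 0.0859), or 0.0223 with 1 probe set per gene, and the other alternatives are given under the processing. Papln had -0.92 (SE 0.18, limma adjusted p = 0.0852), or 0.0200 with 1 probe set per gene. All 4 DTC values lay below all 4 mammary values for these 3 genes. They were picked for the lowest limma p, so this separation largely follows from the choice and is no further support.

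Of the 389 members, 284 passed the interquartile filter, which a large difference between the numbers also helps to pass. At an unadjusted limma p of at most 0.05, 6 were higher in DTC tumors (2.11%, against 6.47% of all probe sets) and 26 were lower (9.15%, against 8.28%). The 6 higher were Bcl11b, D430020J02Rik, Eml1, Osr1, Odc1 (ornithine decarboxylase, of polyamine synthesis) and Rnf144a. Among the lower were Aldh6a1, of valine breakdown in mitochondria (log2 fold change -0.70), Tc2n (-0.95), Eml5, a microtubule-associated protein (-0.95), Itgb8, an integrin subunit (-0.82), and Tgfb3 (-0.52). With 1 probe set per gene, the limma adjusted p was 0.0408 for Aldh6a1, 0.0468 for Tc2n, 0.0475 for Eml5 and 0.0393 for D430020J02Rik, each under a log2 fold change of 1 in size. Without DTC4 it was 0.0289 for Tc2n and 0.0278 for Bcl11b. With the numbers 1 and 2 against 3 and 4 as a term in limma, 8 were higher and 31 lower. Together these were 13.7% of the members tested, against 15.1% of all probe sets, and again none had an adjusted p of at most 0.05.

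By function, no list had more than 2 members with limma p up to 0.05 before adjustment, where 14.8% of all probe sets reached it. The lists with 2 were TGF-beta and growth factors (of 5 tested), heat shock and folding (of 6) and growth and cell cycle (of 14). In the last of these, 1 of the 2 was Rtn1, which is not a cell cycle gene. Of 5 oxygen response members tested, 0 reached a limma p of 0.05, also before adjustment. Hif1a averaged 10.37 ± 0.28 in DTC tumors and 10.31 ± 0.18 in mammary tumors (SD, n = 4 each), a difference of 0.06 (SE 0.18) that did not exceed the spread between tumors.

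By position, the median of DTC minus mammary tumors was -0.04 over all members. It was -0.28 over the first 23, of which 21 were lower in DTC tumors, and -0.03 over the 366 after them. Over all genes measured it was -0.02, with 5722 of 10581 lower in DTC tumors. Over the whole of chromosome 14 it was -0.42, with 327 of 361 genes lower. Of those 23, 13 were tested, and 5 were lower and 1, Osr1, higher at an unadjusted limma p of at most 0.05, where 8.28% of all probe sets were lower and 6.47% higher. The lower ones were Kif3c, a kinesin (-0.57), Ldah, of lipid droplets (-0.56), Dtnb (-0.48), Rhob, a small GTPase (-0.65), and Laptm4a, of lysosomal membranes (-0.39). The lowest adjusted p among the 13 was 0.249. Since the edge was placed with these values in view, the counts in this stretch only describe it and are no test of it. Between the groups, the members of DTC1 and DTC2 lay below those of T1 and T2 by a median of 0.53 in this stretch and 0.05 in the rest, while DTC3 and DTC4 differed from T3 and T4 by -0.06 and -0.03.

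**Figure D5:**
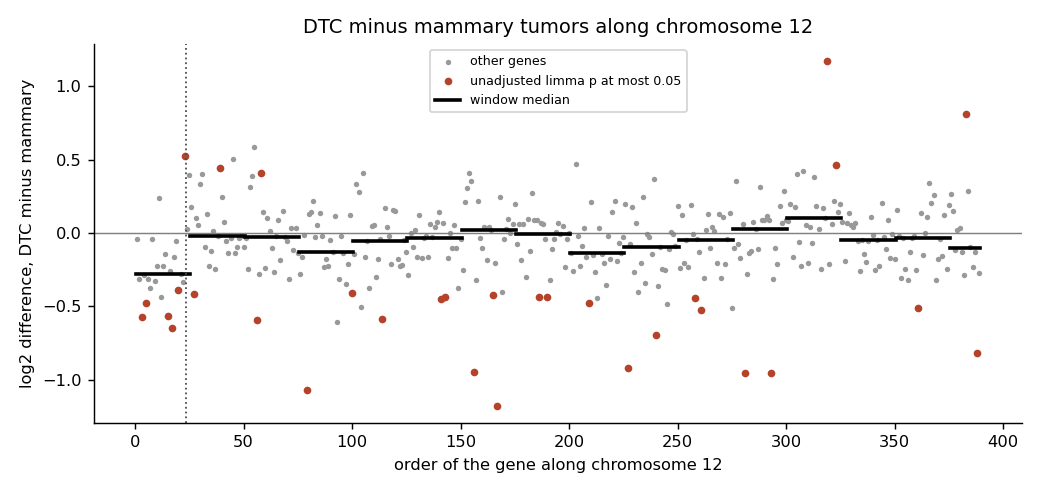
log2 difference of DTC tumors from mammary tumors for each member in its order along chromosome 12, with genes at an unadjusted limma p of at most 0.05 in red and window medians as black lines. The first window lies at -0.28, and the other full windows lie between -0.14 and 0.10.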

How the data were processed

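RNA of 4 DTC tumors and 4 mammary tumors was hybridized to MoGene 2.0 ST arrays. The authors normalized the arrays in oneChannelGUI (sketch-quantile) and deposited a log2 value for each of 41345 probe sets. For the summarization and the software versions, the sources used here give nothing. The precision of each value is limited by 1 array per tumor.

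Of the probe sets, 23521 had 1 gene symbol, 1820 several and 16004 none listed. The platform annotation gave no chromosome, so chromosome and order came from a RefSeq table (GRCm38.p6), by Entrez ID for 23328 probe sets, by symbol for 149 and by synonym for 43, and 1 was not placed. Of 813 chromosome 12 probe sets, 406 averaged at least 6, for 389 genes. The members, the edge and the function lists were chosen with earlier results of these data known.

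DTC and mammary tumors were compared with limma 3.58.1 in R 4.3.3 over all probe sets that passed the methods' interquartile filter (above 0.25), p-values being adjusted by Benjamini-Hochberg and called at the methods' thresholds, after the procedure was tested on simulated data. Numbers 1 and 2 minus 3 and 4 is the mean of the differences within each group. Named genes were the 12 largest and 12 smallest differences among members whose numbers did not overlap and whose sign agreed, the 8 lowest limma p-values, genes at edges and up to 4 per list; any other gene was picked with its values in view. Alternatives concerned filters, probe set choice, normalization, variance model, array weights, blocks, windows and leaving out each tumor.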

Additional observations from a re-analysis of the deposited data

Results flagged for a closer look

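In 103 named genes, 206 groups of 4 tumors were searched for a value far from the other 3 by Dixon's ratio, the gap to the nearest tumor over the whole range, against its critical value. This marked 9 groups (4.37%), and chance marks about 1 in 20. DTC3 was the low one for Ap4s1 (ratio 0.893), Cmpk2 (0.845), Rsad2 (0.857) and Sf3b6 (0.857). DTC4 was low for Egln3 (0.945) and Srp54c (0.859). DTC2 was high for Meox2 (0.844), at 6.62 against 5.75 to 5.89 in the other DTC tumors. T2 was low for Papln (0.838) and T4 for Zfp386 (0.834).

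Numbers 1 and 2 lay wholly below 3 and 4 in DTC tumors, but wholly above in mammary tumors, in 4 of 103 named genes. This contrast was not tested. Other genes were not searched, and some named genes were picked with their values in view. The count therefore has no share over all genes beside it and describes the named genes only. The DTC difference minus the mammary difference was -0.53 for Asxl2, -0.54 for Cyria, -1.15 for Itgb8 and -0.80 for Tc2n. Itgb8 measured 7.51 and 7.68 in DTC1 and DTC2, against 7.99 and 7.79 in DTC3 and DTC4, and 8.81 and 9.17 in T1 and T2, against 8.26 and 8.02 in T3 and T4.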

How the results depend on the processing

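The chromosome 12 median of 0.35 stayed between 0.30 and 0.39 and the 164 members that did not overlap became 151 to 201, over a minimum mean of 5 or 7, every probe set or a gene's mean, median centring, quantile normalization again, subtraction of the median off chromosome 12, protein-coding genes alone and leaving out each tumor. The 151 came from the smaller set with a minimum mean of 7. Leaving out a tumor leaves fewer values to separate, so it can only keep or raise the count (171 to 201). With every probe set the count stayed at 164, as the 17 further probe sets added 0. The lowest full-window median, 0.21, was 0.051 in DTC tumors alone and 0.28 in mammary tumors alone. For DTC against mammary tumors in limma, 0 chromosome 12 probe sets became 1 with array weights (Rtn1) and with robust trended variance (Pik3cg), and 2 with a mean of at least 6 and with 1 probe set per gene (Pik3cg and Rtn1 in both). Leaving out a tumor gave 0 to 2, namely Rtn1 without DTC3, and Tc2n and Bcl11b without DTC4. The 32 members at an unadjusted p of at most 0.05 became 10 with an interquartile range above 0.5 and 15 to 37 on leaving out a tumor, 15 without T1 and 18 without T2. In DTC and mammary tumors the numbers do not pair samples by any label, and the deviations of same-numbered tumors correlated at 0.01, 0.01, 0.17 and 0.19 for numbers 1 to 4, DTC1 and DTC2 not correlating best with their own number. With the replicate block, 0 chromosome 12 probe sets were called. There 36 members reached an unadjusted limma p of at most 0.05 (12.7% of those tested, against 14.5% of all probe sets). Over all probe sets, the block left 7 calls in place of 25. Low signal limits what can be read, the median difference being 0.01 in chromosome 12 genes under the minimum mean.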
